A study of Mus musculus with 6 samples.

Results

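The 31 genes described here are grouped as plasma membrane amino acid transporters. They encode carriers of amino acids, or of the related compounds taurine and creatine, or, for Slc3a2, the heavy chain of such carriers. They were chosen by symbol, and all 31 were found among the 27179 genes of the deposited count table. RNA came from mESCs, mouse embryonic stem cells, which are pluripotent and were grown on gelatin in medium with serum and the cytokine LIF. All 6 libraries came from cells with Tfe3-ERT2, in which Tfe3, a transcription factor, is fused to a receptor domain that holds it outside the nucleus until 4-hydroxytamoxifen (4OHT) is bound. Of these, 3 libraries were from cells given 4OHT at 1 µg/mL for 48 h, and 3 were from cells given its solvent ethanol (EtOH). The labels name no clone, promoter or passage, and every library carries the fusion, so an effect of 4OHT itself and an effect of nuclear Tfe3 cannot be told apart.

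Amino acids cross the membrane through several gene families that differ in substrate and driving force. The anionic SLC1 carriers and most SLC38 and SLC6 carriers use the sodium gradient and can concentrate their substrates. The SLC7 light chains work as exchangers, each bound to the heavy chain encoded by Slc3a2 that brings it to the cell surface. Mouse ES cells are known for a high demand for glutamine and threonine, and leucine and arginine taken up by such carriers feed the growth kinase complex mTORC1. Tfe3 and its relatives are known to act when amino acids are scarce and to raise lysosomal genes.

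Libraries held between 4092877 and 6427880 counts, of which the 31 transporter genes took between 0.268% and 0.297%. Levels are given as CPM, the count scaled to library size with TMM factors, and 3 counts correspond to between 0.467 and 0.736 CPM, a floor that covers counting error only. Tfe3 itself was at 1071, 1032 and 1001 CPM in EtOH and at 829, 833 and 825 CPM in 4OHT, counts that pool the endogenous gene and the fusion as far as they share sequence. The 8 mESC markers, among them Pou5f1, Sox2 and Nanog, summed to between 3915 and 4018 CPM in EtOH and between 4233 and 4244 CPM in 4OHT. Of these 8, 4 were higher (Esrrb, Klf4, Zfp42 and Nanog), 2 were lower (Pou5f1 and Utf1) and 2 were not called (Sox2 and Dppa5a). Over all genes tested, 21.4% were called higher and 20.6% lower. Of 6 trophectoderm markers, 4 were tested, and all 4 (Krt8, Krt18, Eomes and Gata3) rose, against 21.4% of all genes tested. The 6 summed to between 376 and 401 CPM in EtOH against between 869 and 888 CPM in 4OHT. Most of that sum was Krt8 (mean 219 CPM in EtOH, 488 CPM in 4OHT) and Krt18 (160 and 370 CPM). Eomes (4.95 and 13.0 CPM) and Gata3 (3.47 and 7.90 CPM) added little. The defining trophectoderm genes Cdx2 and Elf5 were too low to be tested. They had 31 and 0 counts over the EtOH libraries and 26 and 1 counts over the 4OHT libraries. The 6 primitive endoderm markers summed to between 7.36 and 11.5 CPM in EtOH and between 11.9 and 16.9 CPM in 4OHT, without overlap, and the 2 of them that were tested were not called. The 6 fibroblast markers summed to between 14.9 and 23.1 CPM in EtOH and between 19.0 and 25.2 CPM in 4OHT, with overlap. Whether cells of such other types were present and had a part in the transporter results was not tested. In such bulk RNA fewer cells of a type and less RNA per cell cannot be told apart.

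Transporter RNA was lower in 4OHT as a sum. Levels per gene length are given as RPKM, CPM divided by the deposited gene length in kilobases. Over all 31 genes they summed to 746 ± 7.65 RPKM in EtOH and 665 ± 6.20 RPKM in 4OHT (SD, n = 3 each). Of the 15 genes at or above 10 RPKM in EtOH, Slc38a1, Slc6a8 and Slc38a7 rose. Slc6a6, Slc38a4, Slc7a1 and Slc38a10 were not called, and the remaining ones fell. The 4 abundant heteromeric carrier genes, both SLC1 neutral exchangers and Slc7a3 fell, whereas the creatine carrier gene Slc6a8, the SLC38 genes Slc38a1 and Slc38a7 and the glutamate carrier gene Slc1a1 rose. Of the 31 genes, 27 passed the filter on low counts and were tested. Of these 27, 19 were called, against 42.0% of all 12345 genes tested (edgeR's quasi-likelihood test, Benjamini-Hochberg adjusted p under 0.05). Among them 6 were higher in 4OHT, against 21.4% of all genes tested, and 13 were lower, against 20.6%. The values of the 3 libraries of one treatment lay wholly above or below those of the other in 19 of the 27, against 48.8% of all genes tested. The median log2 fold change was −0.22 over the 27 and −0.0024 over all genes tested. A change of at least 1.5-fold was called in 7 of the 27, 4 higher and 3 lower, against 12.2% of all genes tested.

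**Figure D1:**
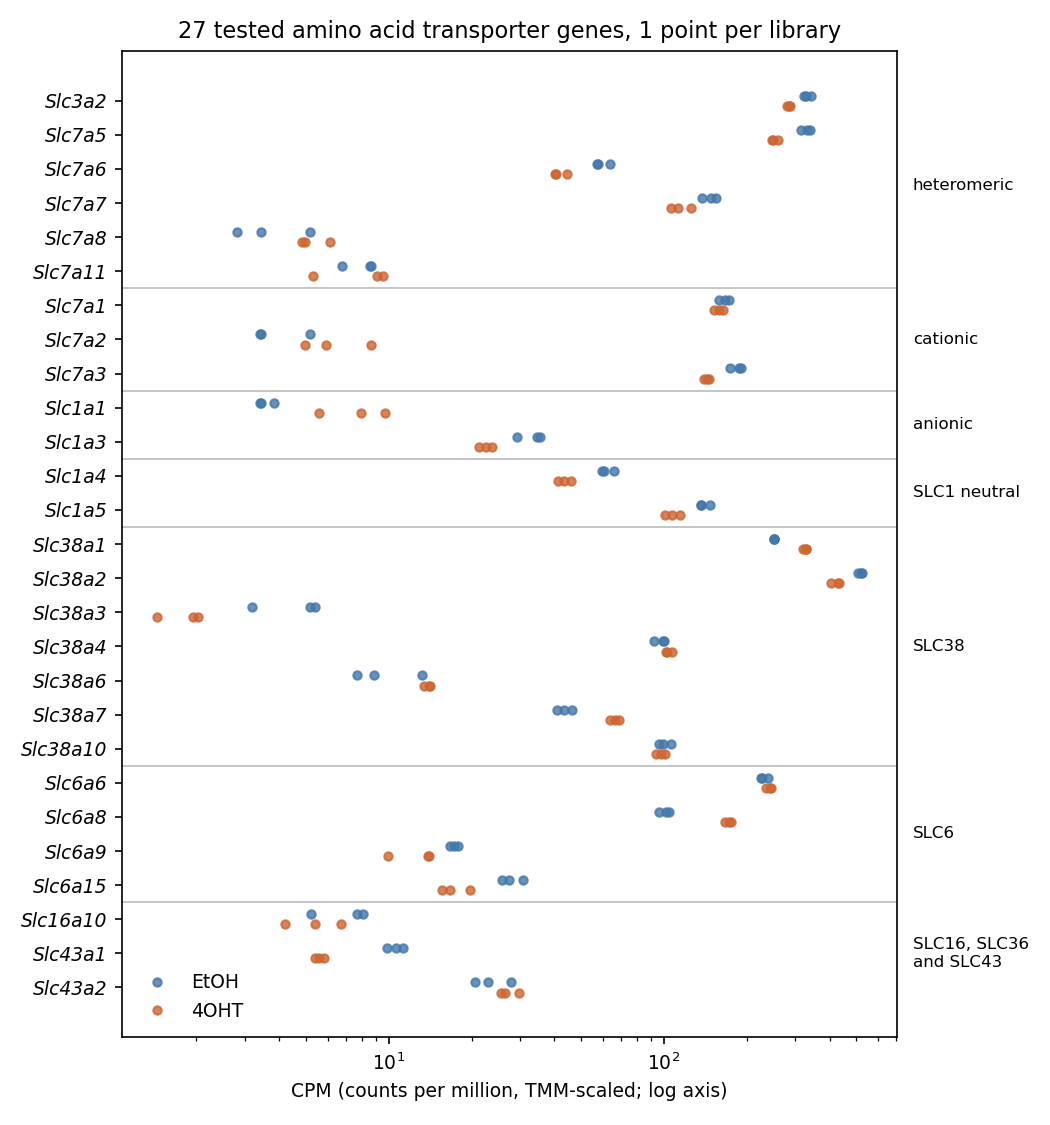
Level of each of the 27 tested transporter genes in CPM (log axis), with 1 point per library, EtOH in blue and 4OHT in orange, grouped by family and substrate. The EtOH points lie to the right of the 4OHT points for abundant genes such as Slc7a5 and Slc38a2, and to the left for Slc6a8 and Slc38a7.

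**Figure D2:**
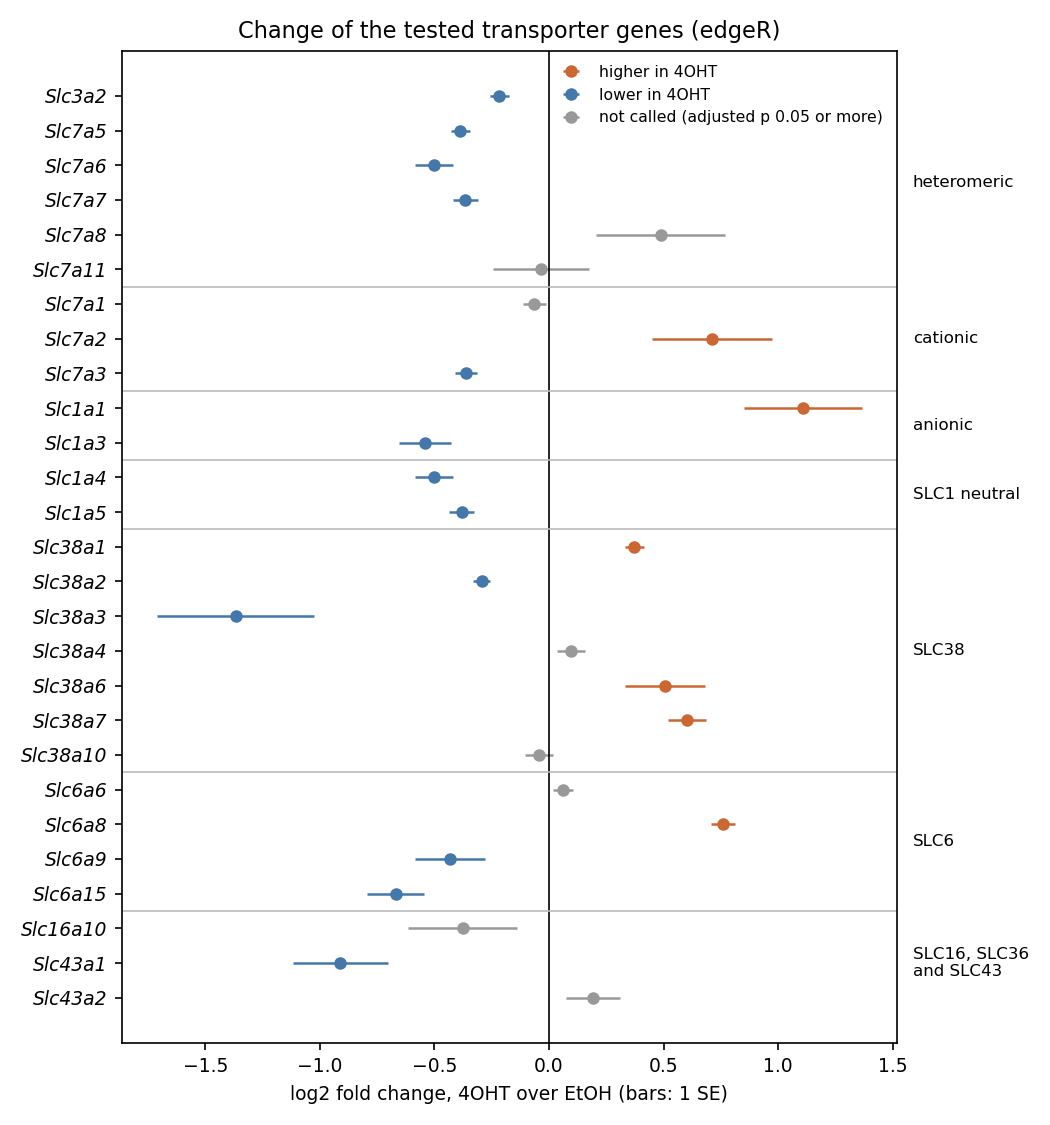
Log2 fold change, 4OHT over EtOH, of the 27 tested genes, with bars of 1 SE. Orange points are the 6 called higher, blue points the 13 called lower and grey points the 8 not called. Bars are widest for genes of few counts, such as Slc38a3 and Slc7a8.

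Short promoter sequences are shown for the members that hold an E-box or an ATF4-type element, since Tfe3 binds E-boxes and the stress factor ATF4 is a known activator of several of these carriers. RefSeq promoter windows (GRCm38.p6, 250 bases before to 50 after a start) were matched for 22 of the 31 genes. There was no match for Slc1a5, Slc38a1, Slc38a3, Slc6a6, Slc6a8, Slc6a15, Slc7a2, Slc7a3 and Slc7a5. Both strands were searched for the E-box CACGTG, for TCACGTG, which contains it, and for the ATF4-type element TGATGNAAN. Capitals mark the matched bases in the runs of 30 bases below, each read 5′ to 3′ on the gene's strand.
Slc38a7, chr8:95853508-95853537, minus strand: gtgattcaggcTCACGTGttacttgagtcg
Slc43a1, chr2:84840247-84840276, plus strand: agggtctccctcCACGTGgcagccgtggga
Slc38a5, chrX:8271339-8271368, plus strand: gcagacaggtgaCACGTGtccctgttaaga
Slc7a11, chr3:50443651-50443680, minus strand: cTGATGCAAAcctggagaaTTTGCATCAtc
Slc1a4, chr11:20332699-20332728, minus strand: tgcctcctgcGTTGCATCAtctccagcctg
Slc7a7, chr14:54418066-54418095, minus strand: cgcttgggctTGATGAAAGgttcactgggc
Slc7a7, chr14:54417926-54417955, minus strand: acctagaagcTGATGCAACagcttccccga
CACGTG was found for 3 of the 22 genes, against 8.09% of all 27025 genes with a window. Of those 3, Slc38a7 rose, Slc43a1 fell and Slc38a5 was too low to be tested. TCACGTG was found for 1, Slc38a7, against 4.29% of all genes. Its first base is 35 bases before the start used for that window. The printed run lies inside the RefSeq span of the gene, 95835920 to 95853577, so the annotated gene begins further upstream. The same holds for the printed runs of Slc43a1 (span 84838855 to 84863586), Slc7a11 (50364936 to 50499087) and Slc7a7 (54369442 to 54420068). TGATGNAAN was found for 3, against 4.50% of all genes. Slc1a4 and Slc7a7 fell, and Slc7a11, which holds a pair of matches facing each other, was not called. The antioxidant-type element TGANNNNGC was found for 14 of the 22, against 45.05% of all genes, and overlaps the second ATF4-type match of Slc7a11. A match is a description of letters and not of binding.

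The heteromeric carriers were the most abundant group per gene length and were lower as a sum. Their 7 genes summed to 282 ± 8.65 RPKM in EtOH and 227 ± 4.68 RPKM in 4OHT (SD, n = 3 each). Of 6 tested, 4 fell, against 20.6% of all genes tested. These 4 were all abundant, and 2 of low level were not called. Slc3a2, the heavy chain also known as CD98 (chromosome 19, 8706882 to 8723369), was at 342, 328 and 322 CPM in EtOH and at 285, 288 and 280.3 CPM in 4OHT. All 3 EtOH libraries were above all 3 4OHT libraries, by 1.16-fold in the fitted value (log2 change, 4OHT over EtOH, −0.22, SE 0.04, edgeR adjusted p = 1.4e-06).

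Slc7a5 encodes LAT1, the light chain that brings in leucine and other large neutral amino acids in exchange for glutamine. It lies on chromosome 8, 121881146 to 121907686, and was at 340.1, 329.9 and 315 CPM in EtOH and at 247, 259 and 248 CPM in 4OHT. The groups did not overlap (log2 change −0.39, SE 0.04, edgeR adjusted p = 9.2e-17). Slc7a7 and Slc7a6 encode light chains that exchange cationic amino acids for neutral ones with sodium. Slc7a7 (chromosome 14, 54369442 to 54420068) was at 155, 137 and 148 CPM in EtOH and at 126, 112 and 106 CPM in 4OHT. Slc7a6 was at 57.6, 63.8 and 56.9 CPM in EtOH and at 40.2, 40.6 and 44.5 CPM in 4OHT. Both were lower in every 4OHT library than in any EtOH library, 1.29-fold for Slc7a7 (log2 change −0.37, SE 0.05, edgeR adjusted p = 1.4e-09) and 1.42-fold for Slc7a6 (−0.50, SE 0.08, edgeR adjusted p = 6.6e-08).

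Slc7a11, the cystine and glutamate exchanger of glutathione supply, was low and showed no common shift. It was at 8.63, 6.76 and 8.58 CPM in EtOH and at 9.09, 9.53 and 5.29 CPM in 4OHT, with overlapping groups (log2 change −0.04, approximate 95% interval −0.45 to 0.37, edgeR adjusted p = 0.91). Its sign turned without EtOH replicate 1 (0.03), EtOH replicate 3 (0.01) or 4OHT replicate 3 (0.22). Slc7a8, the related carrier LAT2, was at 2.81, 5.18 and 3.43 CPM in EtOH and at 4.98, 6.11 and 4.83 CPM in 4OHT (log2 change 0.49, approximate 95% interval −0.06 to 1.04, edgeR adjusted p = 0.16). Slc7a10, a light chain for small neutral amino acids known from the brain, had 1 count in 1 4OHT library and was not tested.

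The shares of the 3 abundant light chains were close in both treatments, and no test was made of them. Slc7a5 made up 55.0% ± 0.916 of the summed light chain RPKM in EtOH and 54.7% ± 1.83 in 4OHT (SD, n = 3 each). Slc7a7 made up 34.5% ± 1.60 and 35.0% ± 2.29, and Slc7a6 9.39% ± 0.719 and 8.58% ± 0.727. Each of these 3 shares moved by less than 2 SD of either treatment. The share of Slc7a8, a light chain of low level, went from 0.558% ± 0.189 to 1.00% ± 0.123, a move of more than 2 SD of either treatment. The light chain sum went from 170 ± 5.24 to 131 ± 3.52 RPKM, and the heavy chain from 112 ± 3.42 to 96.2 ± 1.37 RPKM. The ratio of Slc3a2 to the light chain sum was 0.657, 0.660 and 0.656 in the EtOH libraries and 0.721, 0.738 and 0.747 in the 4OHT libraries. It was higher in every 4OHT library, and no test was made of this ratio.

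**Figure D3:**
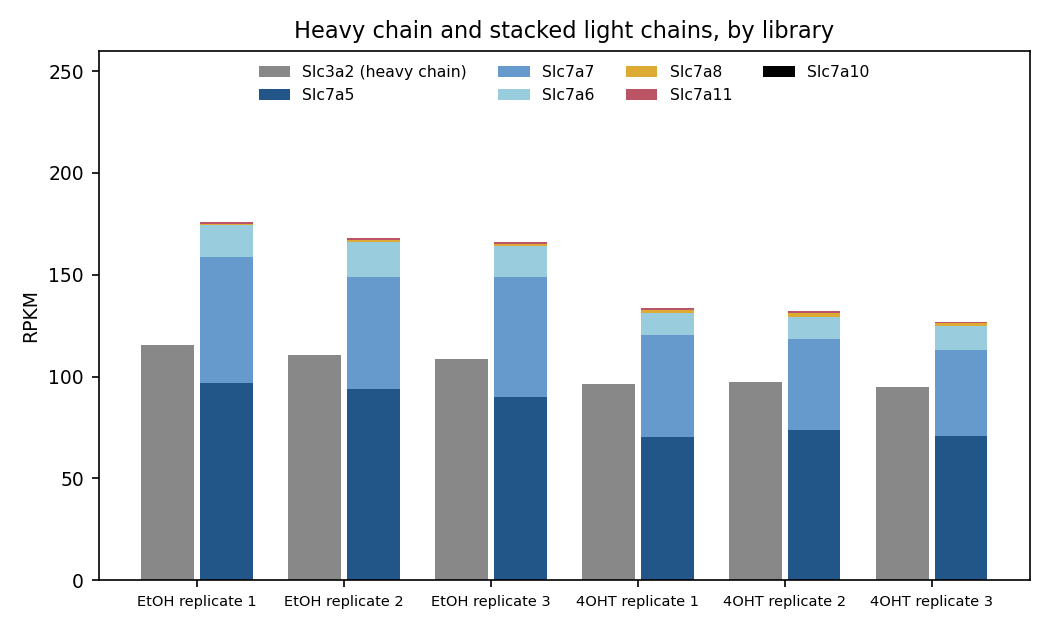
RPKM of the heavy chain gene Slc3a2 (grey) and of the 6 light chain genes (stacked) in each library. The stacks, mainly Slc7a5, Slc7a7 and Slc7a6, shrink from between 166 and 176 RPKM in EtOH to between 127 and 133 RPKM in 4OHT, and the grey bars from between 109 and 115 to between 94.8 and 97.5 RPKM.

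The cationic carriers bring in arginine, lysine and ornithine without a partner protein. The most abundant of the 3 is Slc7a3, on chromosome X, 101079146 to 101090452. It was at 190.1, 174 and 187 CPM in EtOH and at 140.4, 145 and 143 CPM in 4OHT. It was lower in each 4OHT library than in any EtOH library, by 1.29-fold (log2 change −0.36, SE 0.05, edgeR adjusted p = 3.6e-11). Slc7a1, the widely expressed arginine carrier CAT1, was at 158, 172 and 166 CPM in EtOH and at 164, 159 and 152 CPM in 4OHT. Its groups overlapped and it missed the threshold (log2 change −0.06, approximate 95% interval −0.16 to 0.03, edgeR adjusted p = 0.30). Per gene length Slc7a3 was 3.37 ± 0.292 times Slc7a1 in EtOH and 2.73 ± 0.128 times in 4OHT (SD, n = 3 each). Slc7a2, a carrier known from liver and macrophages, was at 3.41, 5.18 and 3.43 CPM in EtOH and at 4.98, 8.63 and 5.92 CPM in 4OHT. It was called higher (log2 change 0.71, SE 0.26, edgeR adjusted p = 0.020) with overlapping groups. That call was lost without EtOH replicate 1 (edgeR adjusted p = 0.11), EtOH replicate 3 (0.081) or 4OHT replicate 2 (0.21), and with DESeq2 (adjusted p = 0.12).

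The anionic carriers, which take up glutamate and aspartate, were low and moved in opposite directions. Slc1a1, the carrier EAAT3 (chromosome 19, 28835135 to 28913960), was at 3.41, 3.83 and 3.43 CPM in EtOH and at 9.74, 5.57 and 7.94 CPM in 4OHT. It rose 2.15-fold with no overlap of the groups (log2 change 1.11, SE 0.26, edgeR adjusted p = 0.00013). In the GENCODE annotation 31.9% of its exon bases overlap the gene model 4430402I18Rik on the opposite strand. The count table has no row of that name, so the level of this gene model could not be set beside that of Slc1a1. The strand setting of the counting is not given in the sources used here. GENCODE holds 8257 exon bases for Slc1a1 against a deposited length of 3708, so the overlapping share of the counted bases is not known. Slc1a3, the carrier EAAT1 known from glia (chromosome 15, 8634124 to 8710807), was at 29.3, 34.7 and 35.3 CPM in EtOH and at 21.2, 22.7 and 23.7 CPM in 4OHT. It was lower in every 4OHT library, by 1.46-fold (log2 change −0.54, SE 0.11, edgeR adjusted p = 1.6e-05). Slc1a1 made up 10.9% ± 0.885 of the group's summed RPKM in EtOH and 27.9% ± 6.18 in 4OHT. Slc1a2, the main glutamate carrier of astrocytes, had 1 count in each treatment and was not tested.

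The SLC1 family also holds a pair of neutral exchangers, and both fell. Slc1a5 encodes ASCT2, a main route for glutamine (chromosome 7, 16781334 to 16798274). It was at 136, 147 and 137 CPM in EtOH and at 107, 115 and 101 CPM in 4OHT (log2 change −0.38, SE 0.06, edgeR adjusted p = 5.6e-10). Slc1a4, the carrier ASCT1 for serine, alanine, cysteine and threonine (chromosome 11, 20302180 to 20332713), was at 59.6, 66.0 and 60.3 CPM in EtOH and at 41.3, 43.3 and 46.1 CPM in 4OHT (log2 change −0.50, SE 0.08, edgeR adjusted p = 3.7e-08). In both genes every 4OHT library was below every EtOH library. Together they summed to 66.6 ± 3.20 RPKM in EtOH and 50.2 ± 2.25 RPKM in 4OHT (SD, n = 3 each).

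The SLC38 family carries small neutral amino acids, and it held genes called in both directions. Of 7 tested, 3 were higher and 2 lower, against 21.4% and 20.6% of all genes tested. The sum over the 8 genes was 204 ± 0.274 RPKM in EtOH and 200 ± 3.22 RPKM in 4OHT (SD, n = 3 each). Slc38a2, the SNAT2 carrier for alanine and glutamine that cells raise when starved of amino acids, lies on chromosome 15, 96687392 to 96699728. It was at 521, 524 and 509 CPM in EtOH and at 434, 405 and 429 CPM in 4OHT (log2 change −0.29, SE 0.04, edgeR adjusted p = 7.8e-13). Its relative Slc38a1, also a glutamine carrier and on the same chromosome at 96571418 to 96643438, was at 250.4, 252 and 252 CPM in EtOH and at 327, 327 and 321 CPM in 4OHT (log2 change 0.37, SE 0.04, edgeR adjusted p = 1.1e-15). Neither gene had overlapping groups, one lower and the other higher in all 3 4OHT libraries. Per gene length Slc38a2 was 3.77, 3.78 and 3.66 times Slc38a1 in the EtOH libraries and 2.41, 2.24 and 2.42 times in the 4OHT libraries.

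Slc38a7 (chromosome 8, 95835920 to 95853577) encodes SNAT7, a glutamine carrier that has also been placed in the lysosomal membrane. It was at 43.4, 41.0 and 46.4 CPM in EtOH and at 68.6, 66.3 and 63.7 CPM in 4OHT. It rose 1.52-fold, with the lowest 4OHT library well above the highest EtOH library (log2 change 0.60, SE 0.08, edgeR adjusted p = 3.0e-11). Its promoter run with TCACGTG is printed above. Slc38a6, a less studied member, was at 8.83, 7.66 and 13.2 CPM in EtOH and at 14.1, 13.5 and 14.2 CPM in 4OHT. It was called higher (log2 change 0.51, SE 0.17, edgeR adjusted p = 0.011), with EtOH replicate 3 close to the 4OHT libraries. The call was lost without EtOH replicate 1 (edgeR adjusted p = 0.084) or EtOH replicate 2 (0.13), and with DESeq2 (adjusted p = 0.095).

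Slc38a3, a carrier of glutamine and histidine known from liver, was at 5.42, 5.18 and 3.19 CPM in EtOH and at 1.95, 1.44 and 2.02 CPM in 4OHT. It was lower in all 3 4OHT libraries, 2.58-fold, the largest fall among the 27 tested genes (log2 change −1.37, SE 0.34, edgeR adjusted p = 0.00041). Slc38a4, an imprinted carrier known from liver and placenta, was at 99.98, 92.4 and 98.8 CPM in EtOH and at 102, 102 and 107 CPM in 4OHT, and missed the threshold (log2 change 0.10, edgeR adjusted p = 0.20). Slc38a10 was not called either, at a mean of 101 CPM in EtOH and 97.4 CPM in 4OHT (log2 change −0.04, approximate 95% interval −0.16 to 0.08, edgeR adjusted p = 0.61). Slc38a5 had 3, 6 and 3 counts in EtOH and 1, 1 and 0 counts in 4OHT, too few for the filter. With no filter its edgeR adjusted p was 0.037.

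The SLC6 family held 1 gene that rose and was higher as a sum. Its 4 genes summed to 75.7 ± 1.90 RPKM in EtOH and 90.7 ± 0.877 RPKM in 4OHT (SD, n = 3 each). Slc6a8 imports creatine for the phosphocreatine energy store and lies on chromosome X, 73673133 to 73682502. It was at 102, 104 and 96.1 CPM in EtOH and at 175, 172 and 166 CPM in 4OHT. Its libraries stood far apart by treatment (log2 change 0.76, SE 0.05, edgeR adjusted p = 1.5e-32). Slc6a6, which imports taurine, was at 228, 239 and 226 CPM in EtOH and at 235, 245 and 243 CPM in 4OHT, with overlapping groups (log2 change 0.06, approximate 95% interval −0.02 to 0.15, edgeR adjusted p = 0.25). Per gene length Slc6a8 was 0.676 ± 0.0167 times Slc6a6 in EtOH and 1.10 ± 0.0499 times in 4OHT.

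The other two SLC6 members fell. Slc6a15, a carrier of branched-chain amino acids and proline known from neurons, was at 25.9, 27.3 and 30.7 CPM in EtOH and at 16.7, 15.6 and 19.8 CPM in 4OHT. It was 1.59-fold lower with no overlap (log2 change −0.67, SE 0.13, edgeR adjusted p = 1.7e-06). Slc6a9, the glycine carrier GlyT1, was at 17.3, 17.8 and 16.7 CPM in EtOH and at 9.95, 14.0 and 13.9 CPM in 4OHT (log2 change −0.43, SE 0.15, edgeR adjusted p = 0.015). The groups did not overlap, but the call was lost without 4OHT replicate 1 (edgeR adjusted p = 0.13) and with DESeq2 (adjusted p = 0.082). In GENCODE 30.2% of the 5141 exon bases of Slc6a9 lie opposite other gene models, among them B4galt2. The deposited length is 3272 bases, so this share of the counted bases is not known either. B4galt2 was at a mean of 13.6 CPM in EtOH and 11.3 CPM in 4OHT and was not called (edgeR adjusted p = 0.24).

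The facilitative and proton coupled carriers were the least abundant group together with the anionic carriers, at 8.47 ± 0.681 RPKM in EtOH and 6.66 ± 0.367 RPKM in 4OHT (SD, n = 3 each). Slc43a1, the leucine carrier LAT3, which needs no heavy chain, lies on chromosome 2, 84838855 to 84863586. It was at 9.84, 10.6 and 11.3 CPM in EtOH and at 5.84, 5.39 and 5.61 CPM in 4OHT. All 3 4OHT libraries were lower, 1.88-fold (log2 change −0.91, SE 0.21, edgeR adjusted p = 9.2e-05). Its relative Slc43a2 (LAT4) was at 22.9, 27.7 and 20.6 CPM in EtOH and at 26.4, 29.7 and 25.5 CPM in 4OHT and missed the threshold (log2 change 0.19, edgeR adjusted p = 0.19). Slc16a10, which lets aromatic amino acids pass, was at 5.22, 7.66 and 8.09 CPM in EtOH and at 6.71, 5.39 and 4.204 CPM in 4OHT (log2 change −0.38, edgeR adjusted p = 0.20). Slc36a4 had 4, 4 and 5 counts in EtOH and 1, 2 and 2 counts in 4OHT and was not tested.

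**Figure D4:**
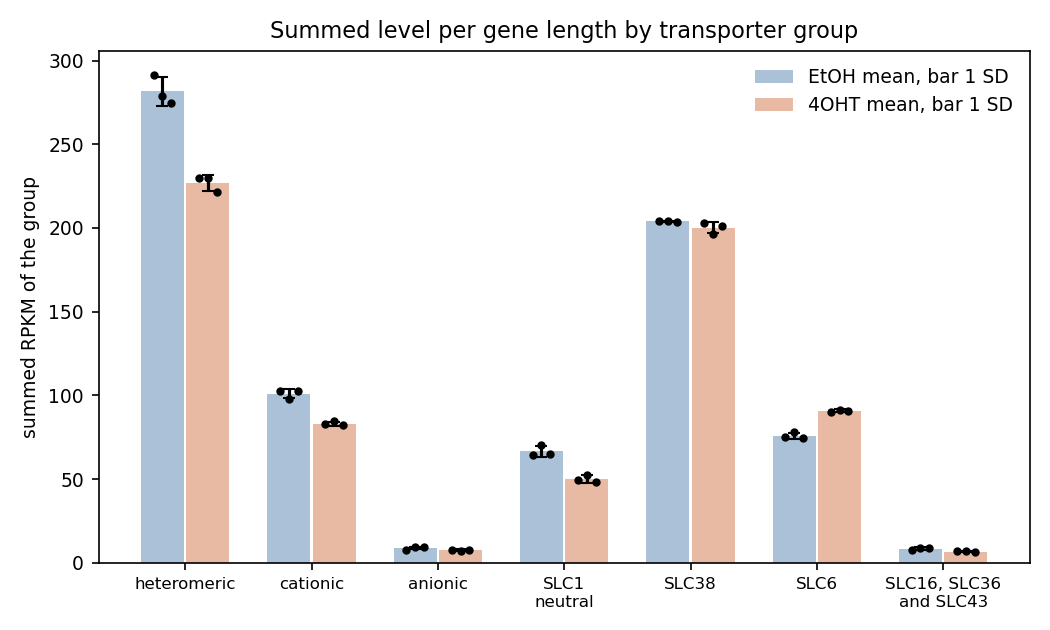
Summed RPKM of each transporter group, with bars at the mean, error bars of 1 SD (n = 3 libraries) and black points for single libraries, EtOH in blue and 4OHT in orange. The heteromeric group falls from 282 to 227 RPKM and the SLC6 group rises from 75.7 to 90.7 RPKM, while the SLC38 group stays near 200 RPKM.

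Compared per gene length, a few genes made up most of the transporter RNA. Order, shares and ratios between genes depend on the deposited lengths, and the SDs do not cover this. GENCODE holds 8838 exon bases for Slc38a2 against a deposited length of 4628. For Slc3a2 these are 3529 against 2958, and for Slc7a5 3708 against 3513. The order with GENCODE lengths was not computed. The 5 highest genes held 60.7% ± 1.17 of the summed RPKM in EtOH and 54.9% ± 0.363 in 4OHT (SD, n = 3 each). In EtOH Slc38a2 (112 ± 1.77 RPKM) and Slc3a2 (112 ± 3.42 RPKM) stood first with overlapping libraries, followed without overlap by Slc7a5 (93.5 ± 3.53), Slc7a3 (77.5 ± 3.61), Slc7a7 (58.6 ± 3.56) and Slc1a5 (50.8 ± 2.31 RPKM). In 4OHT Slc3a2 (96.2 ± 1.37 RPKM) stood above Slc38a2 (91.3 ± 3.33 RPKM) with no overlap. Slc6a8 went from rank 9 (25.3 ± 1.05 RPKM) to rank 6 (43.0 ± 1.18 RPKM), where its libraries overlapped those of Slc7a7 (45.8 ± 4.00 RPKM). Slc1a5, Slc6a6 and Slc38a1 then lay together at 39.1, 39.1 and 38.8 RPKM. At the low end 8 members were under 1 RPKM in EtOH, among them Slc1a1, Slc7a8, Slc7a11 and Slc7a2.

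Other carriers of the same families were mostly too low to be tested. Of 27 listed, 6 passed the filter, and 3 of these rose, against 21.4% of all genes tested. Slc6a7, a proline carrier known from brain, was at 1.61, 0.676 and 1.23 CPM in EtOH and at 5.41, 7.01 and 5.29 CPM in 4OHT (log2 change 2.32, SE 0.36, edgeR adjusted p = 9.0e-09). The proton coupled carrier gene Slc36a1, which also serves the lysosome, went from 14.1 ± 0.940 to 21.4 ± 2.60 CPM (log2 change 0.58, edgeR adjusted p = 0.00027). Slc38a9, a lysosomal arginine sensor, was near the threshold (log2 change 0.34, edgeR adjusted p = 0.049). That call was lost in 11 of the 15 alternatives. The edgeR adjusted p was 0.34 without EtOH replicate 1, 0.26 without 4OHT replicate 1 and 0.099 without 4OHT replicate 3, and the DESeq2 adjusted p was 0.20. The other 3 tested were not called: Slc6a14 (log2 change −0.35), Slc7a4 (−0.58) and Slc43a3 (0.10, but −0.012 when EtOH replicate 1 was left out and −0.14 when 4OHT replicate 3 was).

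Lysosomal carriers of amino acids, peptides and other small molecules were mostly higher in 4OHT. Of 10 tested, 8 rose, against 21.4% of all genes tested. The median log2 fold change was 0.52, against −0.0024 over all genes tested. Slc36a1 and Slc38a9 are on both lists, as is Slc7a14, which was too low to be tested. Mfsd1, a lysosomal dipeptide carrier, went from 58.3 ± 1.97 to 98.3 ± 1.64 CPM (log2 change 0.75, edgeR adjusted p = 3.2e-21). Spns1, a lysosomal lipid exporter, went from 100.02 ± 5.48 to 141 ± 9.80 CPM (log2 change 0.49, edgeR adjusted p = 8.5e-15), and Ctns, the cystine exporter, from 15.8 ± 4.32 to 23.5 ± 1.98 CPM (log2 change 0.57, edgeR adjusted p = 0.00022). Not called were Slc66a1 (log2 change 0.36, edgeR adjusted p = 0.12) and Slc15a4 (0.14, edgeR adjusted p = 0.45). The count was 5 with DESeq2 and 5 without EtOH replicate 1.

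Of 15 known regulators of these carriers, all tested, 5 rose and 6 fell, against 21.4% and 20.6% of all genes tested. The lower ones included Mycn (314 ± 7.31 to 99.8 ± 4.60 CPM, log2 fold change −1.66, edgeR adjusted p = 1.2e-94), a relative of Myc, and Sgk1, a kinase that promotes carriers at the surface (298 ± 8.15 to 209.9 ± 6.73 CPM, log2 fold change −0.50, edgeR adjusted p = 2.2e-24). Myc and Atf4, named after their values were seen, fell by less, with log2 fold changes of −0.28 (edgeR adjusted p = 0.00014) and −0.15 (edgeR adjusted p = 0.0018, and 0.063 without 4OHT replicate 2). Trib3 (−0.24, edgeR adjusted p = 0.0056) and the ubiquitin ligase gene Nedd4 (2550 ± 26.4 to 2408 ± 42.7 CPM, −0.08, edgeR adjusted p = 0.0091) were also lower. Both were likewise named after their values were seen. The call was lost in 2 of the 15 alternatives for Trib3 and in 1 for Nedd4. The higher ones were Nfe2l2, the oxidative stress factor NRF2 (121 ± 5.51 to 189.9 ± 6.93 CPM, log2 fold change 0.65, edgeR adjusted p = 1.1e-27), Ddit3 (1.21, edgeR adjusted p = 3.7e-15), the ubiquitin ligase gene Nedd4l (0.60, edgeR adjusted p = 8.6e-10), Cebpb (0.51, edgeR adjusted p = 0.014) and Keap1 (0.25, edgeR adjusted p = 0.043). Cebpb was lost without EtOH replicate 1 (edgeR adjusted p = 0.055), EtOH replicate 2 (0.095) or 4OHT replicate 2 (0.13). Keap1 was lost without any of EtOH replicate 2 (edgeR adjusted p = 0.18), EtOH replicate 3 (0.080) and 4OHT replicates 1, 2 and 3 (0.071, 0.054 and 0.099). With all 6 libraries it was lost with upper quartile factors (edgeR adjusted p = 0.085) and with no filter (0.056). In all, its call was lost in 9 of the 15 alternatives. Without EtOH replicate 2, without 4OHT replicate 2 and with DESeq2, the count of regulators called higher was 3.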

How the data were processed

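The authors deposited 1 table of raw read counts for 6 libraries, with each gene's length in bases. Per the submitters' processing notes the authors used fastp, STAR and featureCounts on mm10, and per the labels a stranded mRNA kit. For versions, annotation and strand setting the sources used here give nothing. Rows without a symbol (1314) took between 0.411% and 0.478% of a library's counts. The members and lists were chosen with earlier results of these data known, and 1 listed gene that is no member is not reported here. Genes were kept by filterByExpr (minimum count 10, total 15), scaled with TMM factors and tested with edgeR 4.0.16 (robust quasi-likelihood) in R 4.3.3. Benjamini-Hochberg adjusted p-values cover the 12345 tested genes, with a threshold of 0.05. SEs are log2 changes (absolute) divided by the square root of F, and approximate intervals use a normal quantile. All members are named, with up to 3 called genes of smallest p per other list and all members of counts of 5 or fewer. Replicate numbers were not used as pairs, since no label ties a number to a culture. Nor is it stated that libraries came from separate cultures, so p-values measure the spread between these libraries. Every replicate pair differed by more than counting error. Exon overlaps come from GENCODE (vM21), and RefSeq positions are on GRCm38, the assembly also called mm10. On simulated counts of this comparison (12205 genes tested) the test recovered 41.7% of genes changed 1.25-fold and 85.1% changed 1.5-fold.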

Additional observations from a re-analysis of the deposited data

How the results depend on the processing

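The 15 alternatives were other scaling factors (DESeq2 size factors, upper quartile), no filter or 1 CPM in 3 libraries, the replicate block, each library left out, DESeq2 1.42.0, limma-voom (limma 3.58.1), a threshold of 0.01, and the table without Rn45s and rows lacking a symbol. Of the 6 higher and 13 lower transporters, 4 and 12 kept direction and call under all 15. The exceptions were Slc7a2, Slc38a6 and Slc6a9. Leaving out 1 library gave 4 to 6 higher and 12 to 13 lower transporters, 2306 to 2544 higher and 2129 to 2407 lower genes over all tested. The replicate block gave 6 and 13 transporters, with 2585 and 2497 genes over all tested, and changed 1 call among the listed genes, that of Slc38a9 (adjusted p = 0.052). Deviations of libraries with the same number were not alike (correlations of −0.02, −0.02 and −0.02). Lysosomal carriers called higher were 5 to 8 with 1 library left out and 5 with DESeq2, and regulators called higher 3 to 4, 3 with DESeq2 and 3 at a threshold of 0.01. With no filter 1 further family carrier was lower. As TPM in place of RPKM, the 4OHT to EtOH ratio of the sum was 0.999 for the SLC38 family (0.981 as RPKM) and 0.908 for all members (0.891). Signs turned only in genes not called, the cause not tested: with 1 library left out, log2 fold changes ranged from −0.21 to 0.22 for Slc7a11, −0.14 to 0.32 for Slc43a3, −0.13 to 0.083 for Cebpg and −0.037 to 0.087 for Eif2ak4, which was −0.0087 with upper quartile factors. Depth limits most the 4 untested members, which had at most 6 counts in any library.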

Other observations

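Some family carriers too low for the filter had more counts in 1 treatment. Slc6a12, a carrier of betaine and GABA, had no count in the EtOH libraries and 3, 4 and 2 counts in the 4OHT libraries, and with no filter its edgeR adjusted p was 0.031. Slc6a17, a neutral amino acid carrier of synaptic vesicles, had 4, 8 and 3 counts in EtOH and 1, 2 and 1 counts in 4OHT (edgeR adjusted p = 0.047 with no filter). Slc38a8 had no count in EtOH and 2, 2 and 1 counts in 4OHT (edgeR adjusted p = 0.15 with no filter). These genes were picked after their values were seen.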
